A study of Mus musculus with 16 samples.

Results

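The 10 genes described here encode dual-specificity phosphatases that act on mitogen-activated protein kinases (MAPKs): Dusp1, Dusp2, Dusp3, Dusp4, Dusp5, Dusp6, Dusp7, Dusp8, Dusp10 and Dusp16. They were chosen by symbol from the 14925 genes with a counted 3′-UTR, and a row was found for all 10. The data are RIP-seq libraries of mouse bone marrow-derived macrophages (BMDMs), grown from femurs of adult mice with L-cell conditioned medium as the source of M-CSF. RNA recovered with an anti-CPEB4 antibody after formaldehyde crosslinking (RIP) was sequenced beside the RNA of the lysate (Input, depleted of rRNA). WT cells came from culture 76 and CPEB4 KO cells from culture 73, both of strain C57BL/6J 129. The KO mice lacked Cpeb4 in the whole body. Each culture was left untreated or was stimulated for 9 h with 10 ng/ml LPS, which gave 8 groups. The 16 samples were 8 libraries run on lanes 7 and 8, and the deposited counts held both lanes of a library in 1 column. Each combination of genotype, treatment and assay was thus a single library, and no test of genotype or treatment could be made. All intervals given here are 95% intervals that cover the error of counting reads only, and reads without molecular identifiers are not independent molecules.

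MAPKs of the ERK, JNK and p38 families are switched on in macrophages when LPS engages its receptor, and they drive the expression of cytokines and other inflammatory genes. Dual-specificity phosphatases remove phosphate from both the threonine and the tyrosine of the activation loop of these kinases and so switch them off. Several of the phosphatase genes are themselves induced by MAPK signaling, which makes the enzymes feedback inhibitors. Dusp1, Dusp2, Dusp4 and Dusp5 encode the inducible nuclear enzymes, Dusp6 and Dusp7 encode cytoplasmic enzymes with a preference for ERK, and Dusp8, Dusp10 and Dusp16 encode enzymes that act mainly on JNK and p38. Dusp3 encodes a small phosphatase that lacks the kinase-binding domain of the others. CPEB4 is an RNA-binding protein that recognizes the cytoplasmic polyadenylation element (CPE), a U-rich sequence near the 3′ end of some mRNAs, through which the poly(A) tail can be lengthened or shortened. The study used KO cells as the control of the RIP, to find the mRNAs recovered with CPEB4 and to ask how this differs between untreated and LPS-treated macrophages.

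The 8 libraries held from 467696 (KO RIP, untreated) to 2492300 (WT RIP, LPS) reads in 3′-UTR regions that carried a gene symbol. These reads were 46.4% to 51.1% of the library totals in the Inputs, 48.9% and 70.1% in the WT RIPs, and 27.3% and 31.8% in the KO RIPs (untreated and LPS). Counts scaled to 1e+06 3′-UTR reads (CPM) were used for all levels, and the choice of total matters for the sign of some RIP ratios, as given beside them. In the Inputs the 3′-UTR of Cpeb4, the deleted gene, had 121 (WT, untreated), 258 (WT, LPS), 69 (KO, untreated) and 79 (KO, LPS) reads. The log2 ratio of WT over KO was 1.31 (0.89 to 1.74) untreated and 1.36 (1.0 to 1.72) with LPS, so the KO libraries held less of this region but did not lack it. In the RIPs Cpeb4 had 1392 and 1920 reads in WT and 120 and 320 in KO, and KO RIP over KO Input was 2.29 (1.87 to 2.72) untreated and 2.79 (2.44 to 3.14) with LPS. WT RIP over WT Input was 2.67 (2.40 to 2.94) and 2.50 (2.31 to 2.68). The difference, WT minus KO, was 0.38 (-0.12 to 0.88) untreated and -0.29 (-0.69 to 0.11) with LPS, not beyond counting error. These are on 3′-UTR totals, and on the library totals WT over KO in the RIP would be higher by 0.84 untreated and 1.14 with LPS. Whether the counted region lies inside the deleted part is not given in the sources used here. All 8 macrophage markers had reads in every library, with summed levels of 1764 to 4482 CPM and Lyz2 as the highest. Summed levels were 1.2 to 10.7 CPM for T cell markers, 0 to 2.14 for B cell markers and 0 to 3.44 for fibroblast and epithelial markers, and the 5 neutrophil markers were not analysed here. Differences in these sums were not tested for a part in the results, and in bulk RNA fewer cells of a type cannot be told apart from less RNA per cell.

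The 3′-UTR regions of the 10 genes were from 581 bases (Dusp2) to 3591 bases (Dusp3) long, and that of Dusp1 had 690 bases at chr17:26505590-26506279 on the minus strand (mm10). All 10 lay inside an annotated UTR exon of their transcript in GENCODE M21. An exon of Gm20659, a gene on the opposite strand, overlapped the region of Dusp3, and since a strand-aware count is not stated, reads of the overlap cannot be assigned to one of the genes. Dusp3 had 7 rows in the table, of which 4 had distinct coordinates, Dusp16 had 2 rows with distinct coordinates, and the other genes had 1 row each.

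The sites below show where the CPE motifs nearest to the poly(A) signal lie in the 3 genes whose RIP signal was highest in WT relative to KO, and in Dusp3, whose ratio was on the other side of 0. Letters are from the GRCm38.p6 reference, 5′ to 3′ on the strand of the gene, with the CPE in capitals and, in the site of Dusp1, also the poly(A) signal AATAAA.
Dusp1, chr17:26505604-26505633, minus strand: gactttTTTTATacaacagAATAAAttatg
Dusp6, chr10:99267185-99267214, plus strand: tttttttttttTTTTAAATaacttcagctg
Dusp7, chr9:106374546-106374575, plus strand: accatcgatgtaTTTTGTtttcaatggaaa
Dusp3, chr11:101971418-101971447, minus strand: aggaaattgtctTTTTCATaattcttttac
The Dusp1 region ended with a CPE (TTTTAT) 7 bases before its only poly(A) signal, whereas the gap to the last signal was 261 bases in Dusp6, 264 in Dusp3 and 1137 in Dusp7. Among the other members the gap was shortest in Dusp8 (19 bases) and Dusp10 (72 bases).

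Motifs were searched on the sense strand only, and matches may overlap. The consensus CPE was TTTTAT or its longer form TTTTAAT. The other forms counted as CPEs were TTTTAAAT along with TTTTACT, then TTTTCAT along with TTTTAAGT, and last the form TTTTGT with a G. The pentamer AUUUA of AU-rich elements was searched as ATTTA. The poly(A) signal was searched as AATAAA and as its variant ATTAAA. Every one of the 10 regions held at least 1 CPE letter match, as did 73.4% of all 14925 genes, so that a match alone did not set the family apart. Dusp1 held 4, among them a TTTTGT that lies 1 base after an ATTTA.
Dusp1, chr17:26505863-26505892, minus strand: acctttatttatTTTTGTgtaggtcggtgg
Of the 879 genes with a region within 10% of the length of Dusp1, 19.6% held 4 or more. A TTTTAT or TTTTAAT within 100 bases before the last poly(A) signal, a window chosen after the sites were seen, was found in 1 of the 10 genes, Dusp1, and in 15.5% of all genes. Dusp1 and Dusp2 had 4 AUUUA pentamers each and the highest density of them per kilobase (5.80 and 6.88), Dusp7 had none, and 7 of the 10 genes had at least 2, against 45.8% of all genes. That share depends on length. Among genes within 10% of the length of a member it ran from 24.6% (Dusp2) to 90.8% (Dusp3), so the 45.8% is not matched for length. The authors also deposited a prediction of CPE-mediated regulation, which per the methods came from a published script and not from the matches counted here. It was early strong activation for Dusp1 and repression for Dusp8. No class was listed for the other members, and 31.8% of all genes had one. A letter match is not a measured binding site.

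**Figure D1:**
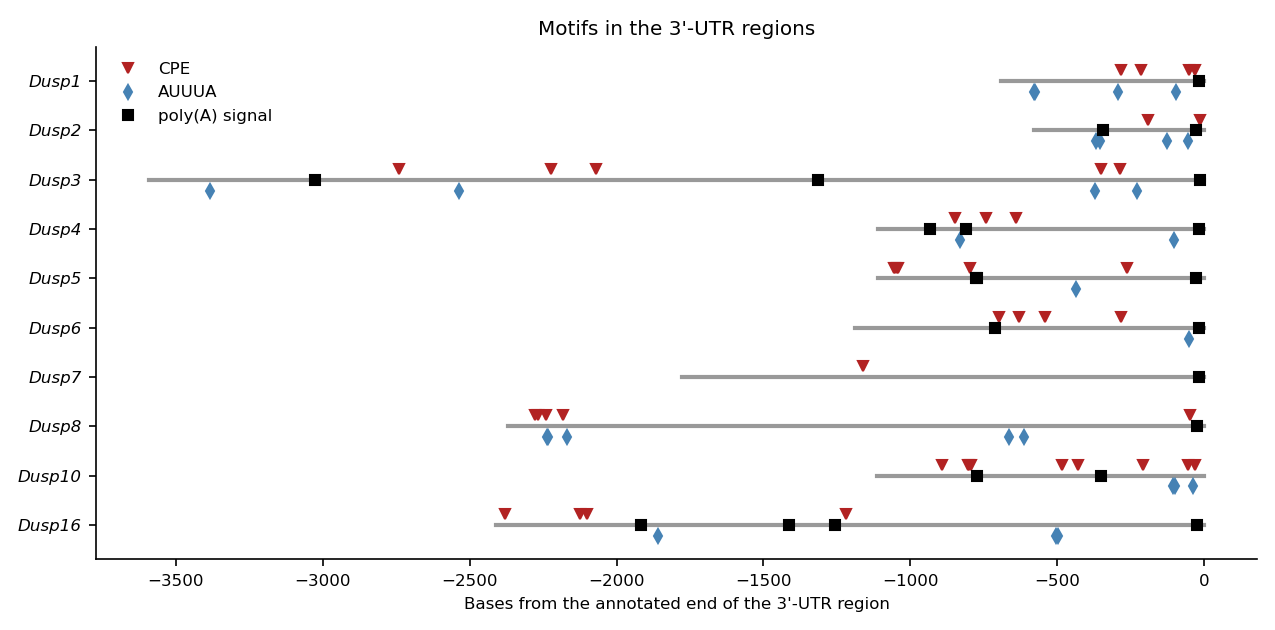
Positions of CPE (triangles), AUUUA (diamonds) and poly(A) signal (squares) letter matches in the 3′-UTR regions of the 10 phosphatase genes; the x axis is the distance in bases from the annotated end of the region and the grey line is the region. Dusp1 has a CPE 7 bases before its poly(A) signal, and Dusp7 has 1 CPE and no AUUUA.

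Levels of the 10 genes spanned a wide range, and their order differed between untreated and LPS-treated cells. Divided by region length, the highest in the untreated WT Input were Dusp7 at 186 CPM per kilobase and Dusp3 at 161, which differed from each other and from the rest beyond counting error. They were followed by Dusp4 (28.1), Dusp1 (26.5) and Dusp6 (22.6), which did not differ from one another beyond it. Dusp2, Dusp16, Dusp5, Dusp8 and Dusp10 had between 0.967 and 9.26 CPM per kilobase, from 1 to 14 reads. In the LPS-treated WT Input the order was led by Dusp2 (134), Dusp1 (113) and Dusp7 (102), neighbours that did not differ beyond counting error. Dusp16 (62.5), Dusp3 (60.8) and Dusp6 (51.9) came next. In the LPS-treated KO Input Dusp2 (195), Dusp1 (150.5) and Dusp7 (95.5) again led, and there each exceeded the next beyond counting error. Dusp8 and Dusp10, with 53 and 61 reads over all 8 libraries, were too thinly covered for most ratios.

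**Figure D2:**
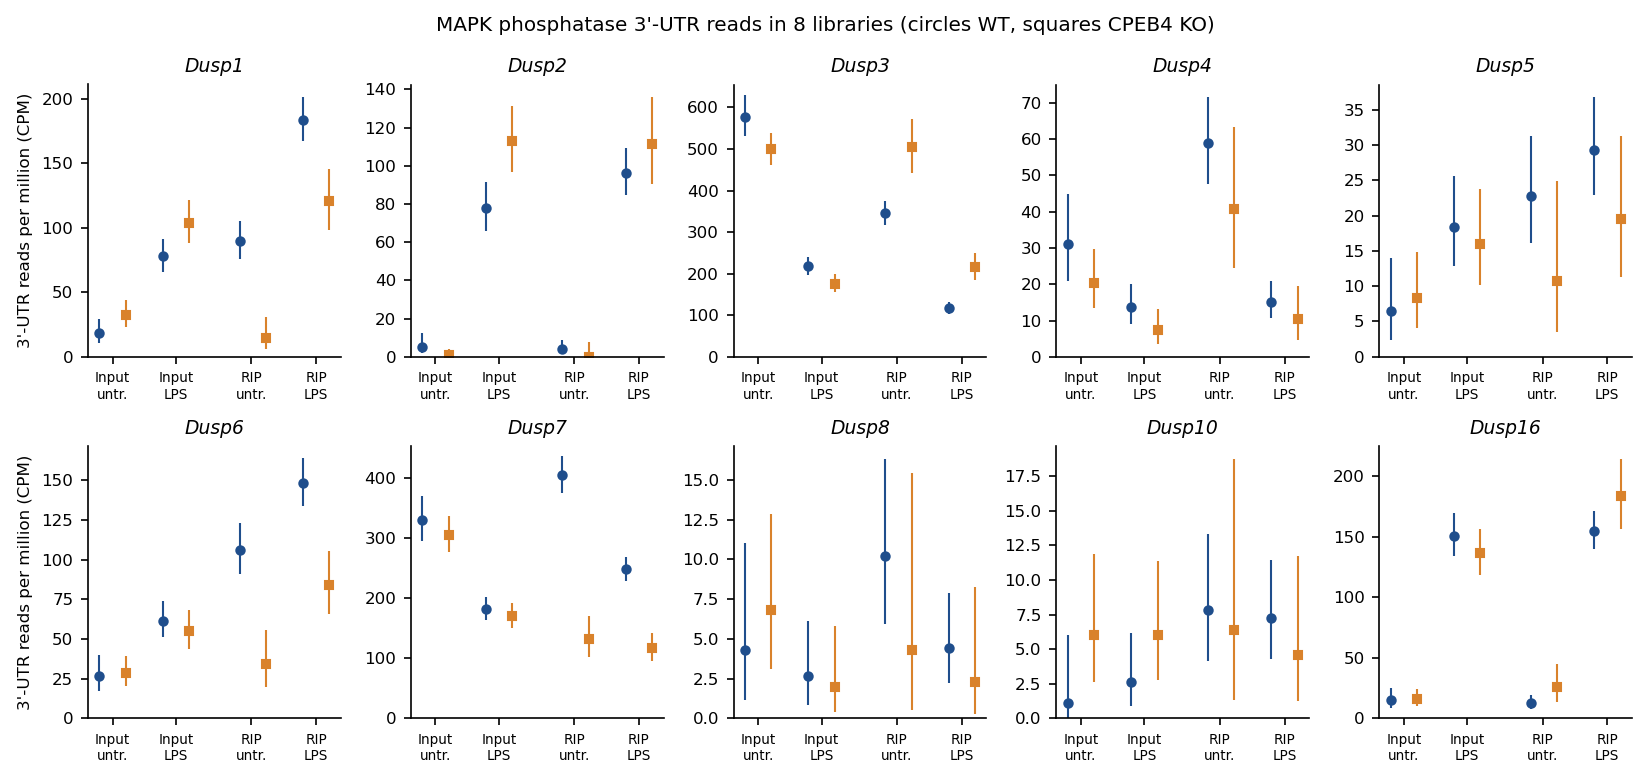
CPM of 3′-UTR reads (y axis, linear from 0, its own scale per gene) of each phosphatase gene in the 8 libraries, WT as circles and CPEB4 KO as squares; bars are exact Poisson 95% intervals of the read count. With bars that do not overlap, Dusp1, Dusp6 and Dusp7 sit higher in the WT RIP than in the KO RIP under both treatments, and Dusp3 lower. On the library totals Dusp3 would be the higher one in WT.

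LPS and the Input levels were compared first, since a higher RIP signal can follow from a higher mRNA level. A ratio of at least 10 reads in the pair and a log2 value over 1 or under -1 was counted as past 2-fold. In the WT Input 5 of the 8 members with enough reads were past 2-fold higher with LPS and 2 were lower, where 14.8% and 17.5% of 8163 genes were. In the KO Input 3 of 10 were higher and 3 lower, against 13.5% and 21.2% of 8250 genes (17.5% and 16.4% by TMM, 17.6% and 16.2% by median-of-ratios, with 5 of the 10 higher in both). The median log2 ratio was 1.24 over the 8 members in WT and 0.43 over the 10 in KO, or 0.90 over the same 8, beside -0.08 and -0.18 over all genes.

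Among the inducible nuclear phosphatases, Dusp1 had 17 reads (18.3 CPM) untreated and 148 (78.0 CPM) with LPS in the WT Input. In the KO Input it had 43 reads (32.4 CPM) and 156 (104 CPM). The LPS-treated libraries were the higher ones in both genotypes, with log2 ratios of 2.02 (1.31 to 2.72) in WT and 1.65 (1.17 to 2.14) in KO. Dusp2, best known from activated leukocytes, had 5 and 148 reads in WT and 1 and 170 in KO. Its log2 ratios of 3.60 (2.43 to 4.78) and 6.24 (4.23 to 8.25) were the highest of the family in both, and the value in KO rests on 1 untreated read. Dusp5, which acts on ERK, had 6 and 35 reads in WT and 11 and 24 in KO, with ratios of 1.33 (0.16 to 2.50) and 0.88 (-0.11 to 1.87). Dusp4 went the other way, with 29 and 26 reads in WT and 27 and 11 in KO, which is -1.18 (-1.93 to -0.43) and -1.40 (-2.38 to -0.43) after scaling.

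The 2 ERK phosphatases of the cytoplasm moved apart. Dusp6 had 25 and 117 reads in the WT Input and 38 and 83 in the KO Input, with log2 ratios of 1.15 (0.54 to 1.76) and 0.93 (0.38 to 1.47). Dusp7 was lower with LPS in both, at 307 and 345 reads in WT and 404 and 255 in KO, or -0.86 (-1.08 to -0.64) and -0.84 (-1.07 to -0.62). Of the JNK and p38 phosphatases, Dusp16 was much higher with LPS, at 14 and 286 reads in WT and 21 and 205 in KO. Its ratios were 3.23 (2.48 to 3.98) and 3.05 (2.41 to 3.68). Dusp8 and Dusp10 had 1 to 9 reads in each Input, and their KO ratios of -1.50 (-3.17 to 0.17) and -0.03 (-1.33 to 1.27) were not beyond counting error. Dusp3 was lower with LPS in both genotypes, at 537 and 414 reads in WT and 662 and 264 in KO, with ratios of -1.40 (-1.59 to -1.22) and -1.50 (-1.71 to -1.30).

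**Figure D3:**
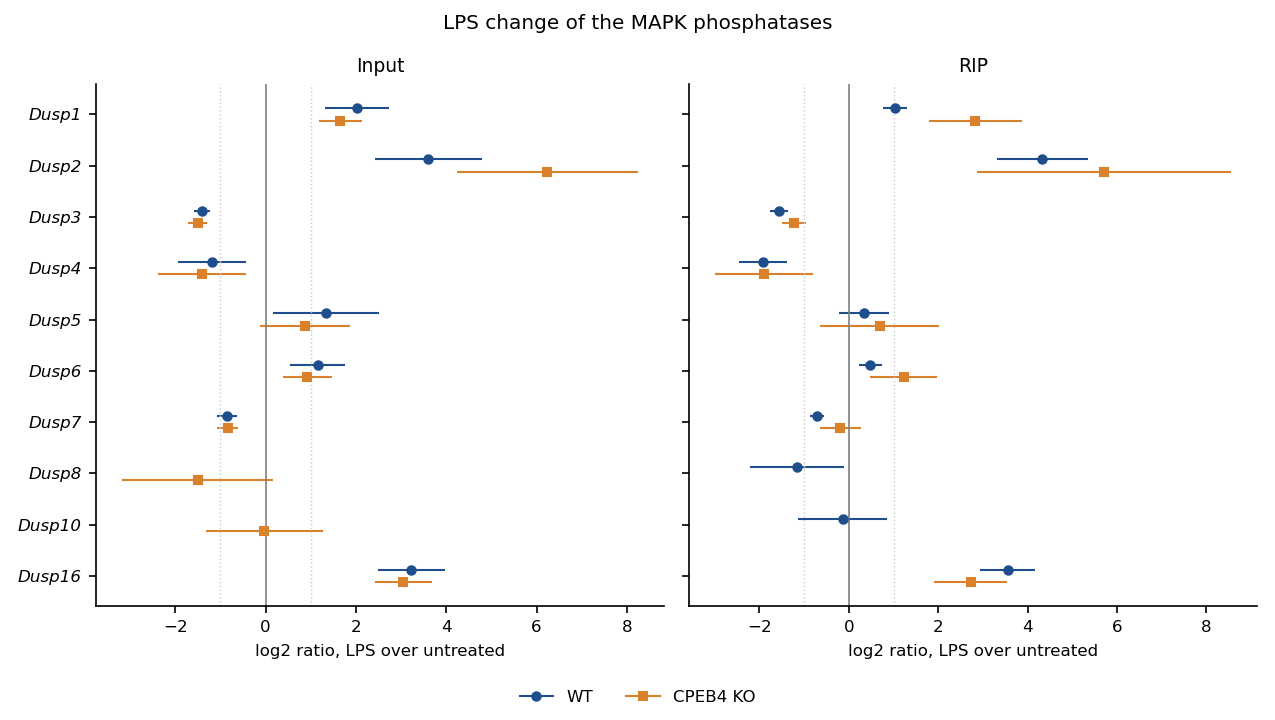
Log2 ratio of LPS over untreated (x axis, scaled to 3′-UTR totals) for each phosphatase gene in the Input (left) and the RIP (right), WT as circles and CPEB4 KO as squares; bars are 95% counting intervals and dotted lines mark 2-fold. Dusp2 lies at 3.60 in WT and 6.24 in KO in the Input, and Dusp1 in the RIP lies at 1.03 in WT and 2.83 in KO.

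For 7 of the 8 members with enough reads the LPS change in the Input did not differ between genotypes beyond counting error. The difference WT minus KO of the log2 ratios was 0.36 (-0.49 to 1.22) for Dusp1, and its interval excluded 0 for Dusp2, at -2.63 (-4.96 to -0.30), with 5 and 1 untreated reads behind it. Over all genes 6.75% had an interval above 0 and 5.26% one below. Set against its family within the same libraries, which frees the value from the scaling, the LPS ratio of Dusp1 was above those of Dusp3, Dusp4 and Dusp7 in both Inputs, by 2.50 to 3.42 on the log2 scale. It was below those of Dusp2 and Dusp16 in both, by -1.21 (-2.24 to -0.18) against Dusp16 in WT and -1.39 (-2.19 to -0.60) in KO. From Dusp5 and Dusp6 it did not differ beyond counting error.

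Few members differed between genotypes in the Inputs. No member was past 2-fold between the untreated Inputs, where 2.43% of genes were higher in WT and 4.79% lower. Between the LPS Inputs 1 of 9 was past it, Dusp10 at -1.07 (-2.53 to 0.39) from 5 and 9 reads, against 3.21% higher and 2.43% lower (2.60% and 3.24% by median-of-ratios). Dusp1 was lower in the WT than in the KO Input library, with a log2 ratio of -0.78 (-1.57 to 0.01) untreated and -0.41 (-0.74 to -0.09) with LPS. The untreated interval included 0. From separate, replicated RNA-seq the paper reports the other direction, with less Dusp1 mRNA in LPS-treated KO macrophages. With LPS, Dusp2 was also lower in WT, at -0.54 (-0.85 to -0.22), and Dusp3 was higher at 0.31 (0.09 to 0.53). The LPS Input ratio of Dusp1 was below that of 5 of the 8 members compared, from -0.51 (-0.91 to -0.11) against Dusp7 to -1.25 (-2.28 to -0.21) against Dusp4.

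Recovery with the CPEB4 antibody was then compared between genotypes. Untreated, Dusp1 had 149 reads (89.4 CPM) in the WT RIP and 7 reads (15.0 CPM) in the KO RIP. With LPS it had 458 reads (184 CPM) and 105 reads (120.5 CPM). The WT libraries were higher under both treatments, by a log2 ratio of 2.40 (1.37 to 3.42) untreated and 0.60 (0.29 to 0.90) with LPS, although the Inputs pointed the other way. Of 8064 genes, 0.533% had a higher untreated ratio than Dusp1, and with LPS 21.9% of 8310 did. On the library totals both values were higher, at 3.24 and 1.74.

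Dusp6 and Dusp7 shared this direction. Dusp6 had 177 and 370 reads in the WT RIPs and 16 and 73 in the KO RIPs (untreated and LPS), with log2 ratios of 1.56 (0.84 to 2.27) and 0.81 (0.45 to 1.17). Dusp7 had 673 and 618 reads in WT against 62 and 102 in KO, or 1.59 (1.21 to 1.96) and 1.07 (0.77 to 1.37). Dusp5 had 38 and 73 reads in WT and 5 and 17 in KO, and Dusp4 98 and 38 against 19 and 9. Their ratios, from 0.45 to 0.87, had intervals that included 0, as did those of Dusp8 (0.75 and 0.48) and Dusp10 (-0.03 and 0.41). On the library totals Dusp4 was at 1.32 and 1.59, Dusp5 at 1.71 and 1.66, and Dusp10 with LPS at 1.55, and these intervals lay above 0.

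Dusp3 and Dusp16 did not share it on 3′-UTR totals. Dusp3 had 576 and 292 reads in the WT RIPs and 236 and 188 in the KO RIPs. Its log2 ratio was -0.55 (-0.77 to -0.33) untreated and -0.88 (-1.15 to -0.62) with LPS, but 0.29 and 0.26 on the library totals, where the sign turned. Dusp16 had 21 and 385 reads in WT and 12 and 160 in KO, at -1.07 (-2.06 to -0.08) and -0.25 (-0.52 to 0.01), and on the library totals -0.23 and 0.89. Dusp2 had 7 and 0 reads untreated, too few for a ratio, and 240 and 97 with LPS, at -0.22 (-0.56 to 0.12) or 0.92 on the library totals.

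In all, 3 of 9 members were past 2-fold higher in the untreated WT RIP and 1 was lower, beside 9.60% and 14.2% of genes (38.6% and 1.77% on the library totals, with 6 members higher and none lower, and 14.3% and 10.0% by TMM, with 4 and none). With LPS 1 of 10 was higher and none lower, beside 9.71% and 17.5% of genes (54.2% and 2.11% on the library totals, with 7 members higher and none lower, and 15.8% and 12.9% by TMM, with 2 and none). The members' median was 0.75 untreated and 0.47 with LPS, against -0.10 and -0.04 over all genes. Thresholds on a chi-square p and a ratio, taken from the first criteria in the methods, compare 2 libraries and not the genotypes. On 3′-UTR totals they called Dusp1, Dusp6 and Dusp7 under both treatments and no other member, where 6.70% (untreated) and 10.6% (LPS) of genes were called. The methods state the ratio as one of RPKM, which rests on library totals. On these, a setting chosen after seeing the data, Dusp4 and Dusp5 were called under both treatments too, and with LPS also Dusp2, Dusp10 and Dusp16, where 33.6% and 53% of genes were called. The deposited MACS peak scores were 129 and 335 for Dusp1 and 343 and 584 for Dusp6 in the WT RIPs. Dusp5 (90.6) and Dusp7 (76.7) had a score in the LPS WT RIP alone, and all 10 members had a score of 0 in both KO RIPs. A score of 0 means that no peak was listed over the region. The share of all genes with a peak was not computed. The KO RIPs held 467696 (untreated) and 871482 (LPS) 3′-UTR reads, beside 1665914 and 2492300 in the WT RIPs. Whether depth had a part in the scores of 0 was not tested.

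**Figure D4:**
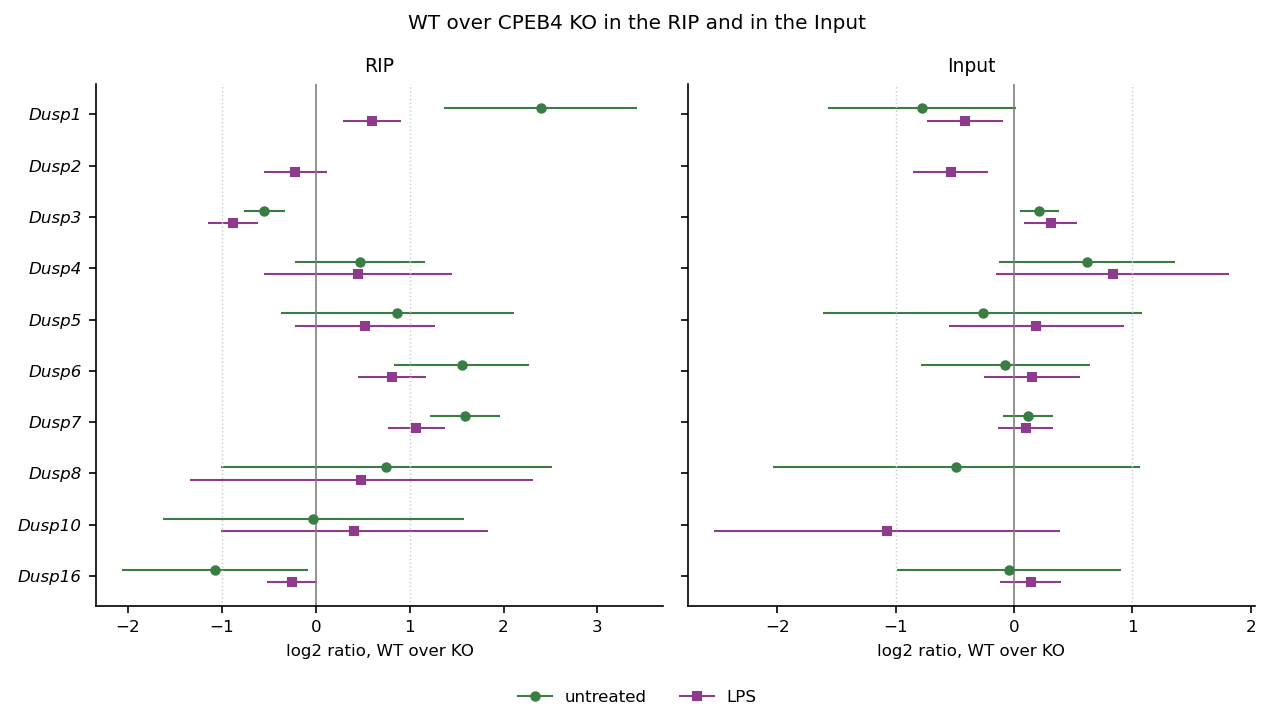
Log2 ratio of WT over CPEB4 KO (x axis, scaled to 3′-UTR totals) for each phosphatase gene in the RIP (left) and the Input (right), untreated as circles and LPS as squares; bars are 95% counting intervals and dotted lines mark 2-fold. Dusp1 untreated lies at 2.40 in the RIP and at -0.78 in the Input.

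Subtracting the WT over KO ratio of the Inputs from that of the RIPs gave the Input-corrected ratio. It was 3.17 (1.88 to 4.47) for Dusp1 untreated, a value exceeded by 0.181% of 7201 genes, and 1.01 (0.57 to 1.46) with LPS, exceeded by 11.3% of 7575. Dusp6 was at 1.63 (0.61 to 2.64) and 0.66 (0.12 to 1.2), and Dusp7 at 1.47 (1.04 to 1.90) and 0.97 (0.59 to 1.35). Dusp3 was at -0.76 (-1.03 to -0.49) and -1.19 (-1.54 to -0.85), and at 0.07 and 0.0043 on the library totals. Intervals were above 0 for 3 members under both treatments, and below 0 for 1 of 8 untreated and 2 of 9 with LPS, the other being Dusp16 at -0.40 (-0.77 to -0.03), which turned to 0.80 on the library totals. Among all genes 15.1% and 16% were above 0 and 16.7% and 22.5% below. These counts and shares are on 3′-UTR totals. The library totals shift WT over KO by 0.84 (untreated) and 1.14 (LPS) in the RIP, but by 0.01 and -0.06 in the Input. There the Input-corrected ratio of every member would be higher, and further intervals would lie above 0. The shares of all genes were not computed on them.

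Recovery over the Input within each genotype used the same libraries in another pairing. In the untreated WT cells 5 of 10 members were past 2-fold higher in the RIP and none lower, beside 25.5% and 21.5% of genes. The 5 include Dusp10 and Dusp8, whose intervals included 0, the latter at 1.01 (-0.42 to 2.43) from 17 and 4 reads. By median-of-ratios 4 were higher, beside 24.9% and 22.1% of genes. With at least 50 reads 2 were, a minimum under which the share of all genes was not computed. With LPS 3 of 10 were higher and none lower, beside 23.5% and 26.9% (35.8% and 16.8% on the library totals, where 5 were higher). Dusp1 led the untreated order at 2.22 (1.51 to 2.92), followed by Dusp10 at 1.96 (-0.17 to 4.10), Dusp6 at 1.93 (1.34 to 2.53) and Dusp5 at 1.64 (0.47 to 2.80). With LPS Dusp10 was at 1.27 (-0.05 to 2.59), Dusp6 at 1.26 (0.96 to 1.56) and Dusp1 at 1.23 (0.96 to 1.50). Dusp7 was only at 0.29 (0.09 to 0.48) and 0.45 (0.26 to 0.64), and Dusp3 was at -0.74 (-0.91 to -0.57) and -0.90 (-1.11 to -0.68).

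In the KO cells 1 of 9 members was past 2-fold higher and 1 lower untreated, beside 18.2% and 12% of genes. On the library totals none was higher and 3 were lower, beside 5.84% and 39.4%. By TMM or median-of-ratios none was higher and 2 were lower, beside 15.6% and 14.7% of genes by TMM and 16.8% and 13.5% by median-of-ratios. With LPS none of 9 was, beside 17.2% and 12%, and on the library totals 1 was lower, beside 6.55% and 36.3%. Dusp1 was at -0.96 (-2.04 to 0.13) untreated and 0.22 (-0.14 to 0.57) with LPS, the latter at -0.46 on the library totals. Dusp7 was the lowest in both, at -1.18 (-1.56 to -0.80) and -0.53 (-0.86 to -0.20), and Dusp4 the highest untreated, at 1.02 (0.19 to 1.85), or 0.25 with an interval that included 0 on the library totals. With LPS Dusp6 was at 0.60 (0.15 to 1.05), Dusp16 at 0.43 (0.13 to 0.73) and Dusp3 at 0.30 (0.03 to 0.57), and these 3 turned to -0.08, -0.25 and -0.39 on the library totals. Dusp1, Dusp6 and Dusp10 were past 2-fold above the Input in the WT RIPs of both treatments, and Dusp7 was not. The intervals of Dusp10 included 0, from 13 and 1 reads untreated and 18 and 5 with LPS. With LPS the intervals of Dusp1 and Dusp6 began at 0.96, under 2-fold.

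Within a pair of libraries the ratio of Dusp1 minus that of another member does not depend on the totals. For WT over KO in the untreated RIP, Dusp1 was above 4 of the 8 members compared and below none. The differences were 3.47 (2.04 to 4.90) from Dusp16, 2.95 (1.90 to 3.99) from Dusp3, 2.42 (0.52 to 4.32) from Dusp10 and 1.92 (0.68 to 3.16) from Dusp4. From Dusp6 it differed by 0.84 (-0.41 to 2.09) and from Dusp7 by 0.81 (-0.28 to 1.90), so these 3 could not be ordered at this depth. With LPS Dusp1 was above 3 of 9, namely Dusp3 by 1.48 (1.08 to 1.88), Dusp16 by 0.85 (0.45 to 1.26) and Dusp2 by 0.82 (0.36 to 1.27). It was below Dusp7, by -0.47 (-0.90 to -0.04).

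For the RIP over the Input in WT, Dusp1 was above the same 5 members under both treatments, Dusp2, Dusp3, Dusp4, Dusp7 and Dusp16. The untreated differences ran from 1.34 (0.42 to 2.26) over Dusp4 to 2.96 (2.23 to 3.68) over Dusp3, and the LPS differences from 0.78 (0.46 to 1.11) over Dusp7 to 2.13 (1.78 to 2.47) over Dusp3. From Dusp5, Dusp6, Dusp8 and Dusp10 it did not differ beyond counting error in either. In KO it was above none and below 2 of 8 untreated, Dusp4 by -1.97 (-3.34 to -0.61) and Dusp16 by -1.70 (-3.17 to -0.23). With LPS it was above 1 of 8, Dusp7, by 0.75 (0.26 to 1.23). Over all 12 pairs of libraries 98 such differences were formed, of which 38 had an interval above 0 and 17 one below; pairs that share a library are not independent.

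**Figure D5:**
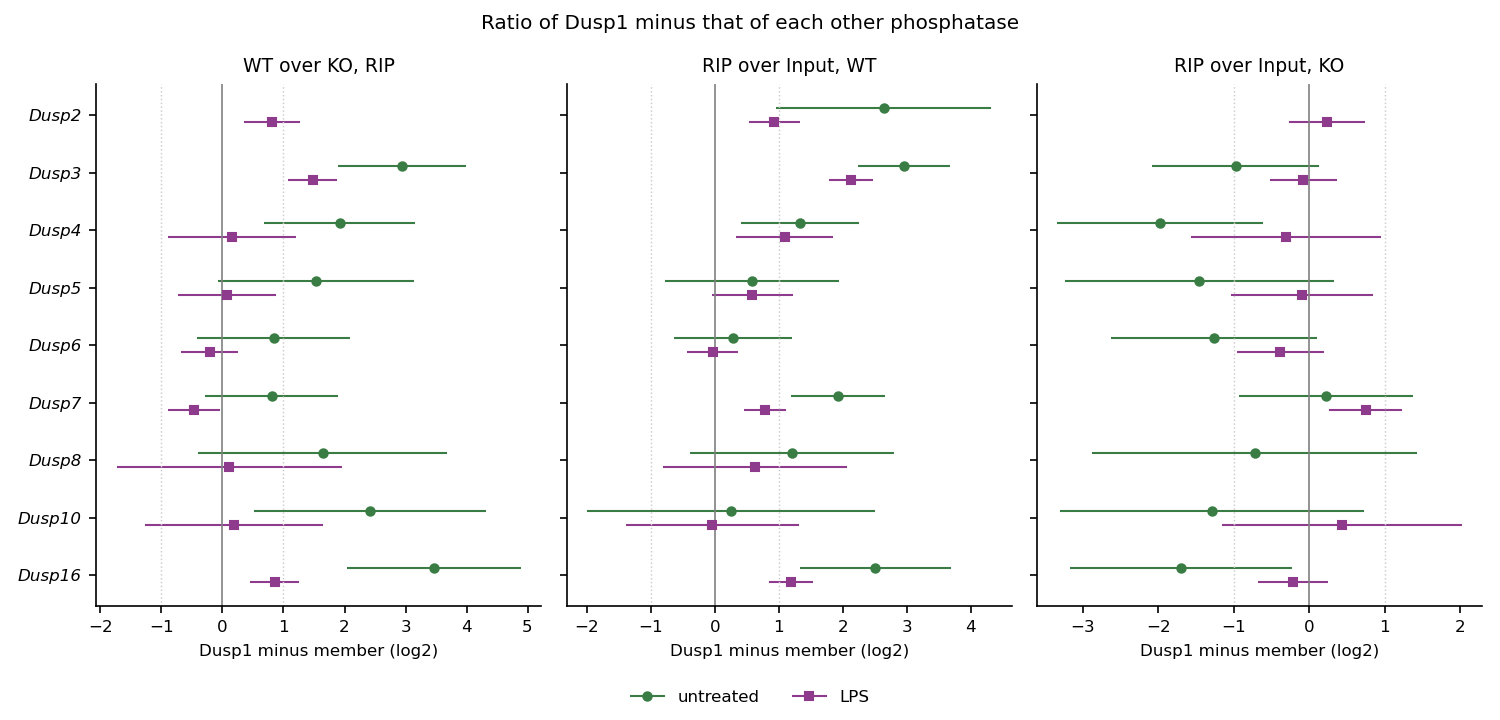
Log2 ratio of Dusp1 minus that of each other phosphatase gene (x axis) for WT over CPEB4 KO in the RIP, RIP over Input in WT and RIP over Input in KO, untreated as circles and LPS as squares; bars are 95% counting intervals and a missing point had under 10 reads. In the WT RIP over Input the points of Dusp2, Dusp3, Dusp4, Dusp7 and Dusp16 lie above 0 under both treatments.

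The LPS change inside the RIP was smaller in WT than in KO for Dusp1, beyond counting error. In the WT RIPs Dusp1 went from 89.4 to 184 CPM, a log2 ratio of 1.03 (0.77 to 1.30), and in the KO RIPs from 15.0 to 120.5 CPM, 2.83 (1.79 to 3.87). The difference WT minus KO was -1.80 (-2.87 to -0.73), and it equals the LPS minus the untreated WT over KO ratio given above. Of 7149 genes 1.41% had a lower value. Dusp7 was at -0.52 (-0.99 to -0.04), or -0.22 with an interval that included 0 on the library totals, and Dusp6 at -0.75 (-1.55 to 0.06). Intervals lay below 0 for 2 of 8 members and above it for none, beside 5.36% of all genes in each direction. The value for Dusp1 rests on the 7 reads in the untreated KO RIP, the library with the fewest reads.

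In the RIPs 3 of 10 members were past 2-fold higher with LPS in WT and 3 lower, beside 12.1% and 21.9% of genes (22.2% and 11.9% on the library totals, 16.5% and 15.2% by TMM, 15.6% and 16.4% by median-of-ratios, with 2 members lower in each). In KO 4 of 8 were higher and 2 lower, beside 14.1% and 21.7% (18.3% and 16.2%, 19.0% and 15.7%, and 18.0% and 16.5% in the same order). Dusp2 went from 7 to 240 reads in WT, 4.33 (3.32 to 5.35), and from 0 to 97 in KO. With a floor of 3 reads per library for the empty one, which allows up to 6.41 CPM, its KO level was at least 17.35-fold higher with LPS. The exact lower limit of the log2 ratio was 3.79. Dusp16 was at 3.55 (2.93 to 4.17) and 2.73 (1.92 to 3.55). Dusp3 was at -1.56 (-1.76 to -1.36) and -1.22 (-1.50 to -0.95), and Dusp4 at -1.93 (-2.46 to -1.39) and -1.90 (-2.99 to -0.80), the same directions as in the Inputs.

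The kinases and other inhibitors of the pathway were taken from fixed lists. Beside them, 14.8% of all genes were past 2-fold higher with LPS and 17.5% lower in the WT Input, and 13.5% and 21.2% in the KO Input. Of 10 MAPK genes 7 had enough reads in the LPS comparison of both Inputs. Mapk11, which encodes a p38 isoform, was past 2-fold higher with LPS in both, at 2.19 (0.47 to 3.91) in WT and 1.40 (0.17 to 2.64) in KO. Mapk7 was past it in WT alone, and no MAPK gene was past 2-fold lower. Of 6 MAP2K genes with enough reads, Map2k1, an activator of ERK, was higher in both, at 1.04 (0.73 to 1.34) and 1.29 (1.02 to 1.55), and Map2k5 was lower in WT. Among 6 kinases downstream of MAPKs, Rps6ka4, a nuclear kinase of the MSK type, was higher at 1.72 (1.2 to 2.24) and 1.55 (1.06 to 2.04). Mknk1, which phosphorylates the cap-binding factor eIF4E, was lower at -1.10 (-1.51 to -0.70) and -1.26 (-1.70 to -0.82), and Rps6ka5 was lower in WT. Of the other inhibitors, Spred2, a suppressor of the Ras to ERK pathway, was higher at 1.01 (0.62 to 1.40) and 1.58 (1.2 to 1.96), with 2 of 5 past 2-fold higher in WT and 2 of 6 in KO, and none lower.

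Between the WT and KO RIPs these lists were mixed. The values are on 3′-UTR totals, where 9.60% of all genes were past 2-fold higher and 14.2% lower untreated, and 9.71% and 17.5% with LPS. On the library totals each value would be higher by 0.84 untreated and 1.14 with LPS. This would put Spred3 at 0.12 with LPS and leave neither Mapk3 nor Map2k2 past 2-fold lower under both. Past 2-fold higher under both would then be Mapk8, Map2k3, Mapkapk3, Rps6ka5, Mknk1, Mknk2, Spry2, Spred1 and Spred2. The shares of all genes would be 38.6% higher and 1.77% lower untreated, and 54.2% and 2.11% with LPS. Of the MAPK genes 2 of 6 untreated and 2 of 7 with LPS were past 2-fold lower and none higher. Mapk3, which encodes an ERK kinase, was lower under both, with 13 and 9 reads in the WT RIPs and 12 and 23 in the KO RIPs, or -1.73 (-2.81 to -0.64) and -2.78 (-3.84 to -1.71). Map2k2, the other activator of ERK, was at -1.74 (-2.76 to -0.72) and -1.79 (-2.67 to -0.91), with 1 of 6 of its list higher and 1 lower untreated and 2 of 7 lower with LPS. Mapkapk3, a kinase that p38 activates, was higher under both at 1.13 (0.50 to 1.75) and 1.05 (0.59 to 1.50) and was the 1 of 6 of its list past 2-fold. Of the other inhibitors 3 of 6 were higher and 1 lower untreated, and 1 of 7 was higher and 1 lower with LPS. Spred1 was at 1.05 (0.82 to 1.28) untreated and 0.52 (0.39 to 0.65) with LPS, and Spred2 at 1.36 (0.56 to 2.16) and 0.82 (0.51 to 1.13). Spry2 was at 2.72 (0.68 to 4.76) and 0.57 (-0.54 to 1.68), the first from 46 reads in the WT RIP and 1 in the KO RIP. Spry1 with LPS was at 2.48 (-0.43 to 5.40), from 15 reads in WT and 0 in KO, so its value depends on the added read. Spred3 was the lower one in both, at -1.42 (-2.50 to -0.34) and -1.02 (-1.70 to -0.33). Ptpn7 was not past 2-fold, at -0.79 (-1.20 to -0.38) and -0.44 (-0.82 to -0.07).

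The 12 other genes whose symbol starts with Dusp were mostly thinly covered. In the LPS comparison of the Inputs 1 of 4 was past 2-fold higher and 1 lower in WT, beside 14.8% and 17.5% of all genes. In KO it was 1 of 7 and 1 of 7, beside 13.5% and 21.2%. Dusp28 was the higher one in both, at 2.14 (0.42 to 3.86) and 1.01 (-0.27 to 2.29), from 2 to 26 and 6 to 15 reads. Between the WT and KO RIPs none of 6 was higher and 2 were lower untreated, beside 9.60% and 14.2% of all genes. With LPS 1 was higher and 1 lower, beside 9.71% and 17.5%. Dusp23 was the lower one in both, at -2.42 (-3.91 to -0.93) and -1.23 (-2.50 to 0.04), from 5 and 10 reads in WT and 8 in each KO RIP. None of the 12 was past 2-fold higher in the WT RIP under both treatments on 3′-UTR totals, and on the library totals Dusp11 was, at 1.03 and 1.72.

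Across the 8 libraries the gene whose log2(CPM + 1) was most like that of Dusp1 was Slc16a1, a monocarboxylate transporter, with a Pearson correlation of 0.98 among 3590 genes with a mean of at least 50 reads. It had 71 and 279 reads in the WT RIPs and 3 and 51 in the KO RIPs. Ap3s1, a subunit of an adaptor complex of vesicle transport, and Ppp2r2a, a regulatory subunit of protein phosphatase 2A, followed at 0.97 each. Of the family, Dusp6 was at 0.89, Dusp2 at 0.83, Dusp16 at 0.71, Dusp7 at -0.08 and Dusp3 at -0.91. These are descriptions over 8 libraries that share cultures and differ in depth.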

How the data were processed

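RIP-seq of WT and KO BMDMs was analysed from the tables that the authors deposited. Per the methods and labels, the authors aligned reads to mm10 with Bowtie2 2.2.2, removed duplicates, and counted the overlaps of reads with Ensembl 3′-UTRs. The deposited counts are raw whole numbers of 1 column per library. The authors' RPKM served only to recover library totals. The deposited score is the highest MACS 1.4.2 peak score of a RIP against its Input. The deposited region coordinates, CPE motif annotation and prediction are not measured values. Columns of the authors' own fold changes and p-values were not used.

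Rows without a symbol (495 of 31117, 0.902% to 1.04% of reads) were left out. For each symbol the most-read region was kept, 1 read was added, and counts were scaled to the 3′-UTR sum of each library. No ratio was formed under 10 reads in the pair. Normal 95% intervals came from the read counts. In 2 of 110 ratios an exact interval lay on another side of 0: Dusp10 for RIP over Input in untreated WT cells and Dusp16 for WT over KO in the untreated RIP. The ratio code was tested on simulated data. With 1 library per group no p-value was computed for a condition. Python 3.11.15, pandas 2.3.3, scipy 1.17.1, pysam 0.24.0, R 4.3.3, edgeR 4.0.16 (TMM) and DESeq2 1.42.0 (size factors) were used. All 10 members, Cpeb4, the 3 genes most like Dusp1, and the genes of the pathway lists past 2-fold in the LPS change of both Inputs or in WT over KO of both RIPs were named; other list genes were named after their values were seen. The members and lists were chosen with earlier results of these data known.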

Additional observations from a re-analysis of the deposited data

Results flagged for a closer look

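Each value here is a difference of 2 log2 ratios between genotypes whose 95% counting interval excluded 0 on 3′-UTR totals. With 1 library per group the spread between cultures was not tested. In RIP over Input, WT minus KO (the Input-corrected ratio), untreated cells gave 3.17 for Dusp1, 1.63 for Dusp6, 1.47 for Dusp7 and -0.76 for Dusp3. LPS-treated cells gave 1.01 for Dusp1, 0.97 for Dusp7, 0.66 for Dusp6, -0.40 for Dusp16 and -1.19 for Dusp3. In the LPS change, WT minus KO, Dusp2 was at -2.63 in the Input, and Dusp1 at -1.80 and Dusp7 at -0.52 in the RIP.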

How the results depend on the processing

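Other scalings moved all ratios of a pair alike, by -0.77 to 1.14 (log2) on the library totals, -0.10 to 0.28 by TMM and -0.08 to 0.24 by median-of-ratios. Of 106 recomputed counts 97 stayed within 1.5 times the reported one. On the library totals, members past 2-fold became 5 for RIP over Input in WT with LPS (from 3), 1 in KO with LPS (from 0) and 7 for WT over KO in the LPS RIP (from 1; 2 by TMM, and with the study's thresholds on p and ratio 3 on 3′-UTR totals and 8 on library totals, the last chosen after seeing the data). With at least 50 reads they became 0 for WT over KO in the LPS Input (from 1), 2 for RIP over Input in untreated WT (from 5) and 1 in untreated KO (from 2). Members that met this minimum in the LPS Input pair were Dusp1, Dusp2, Dusp3, Dusp5, Dusp6, Dusp7 and Dusp16. For RIP over Input they were Dusp1, Dusp3, Dusp6 and Dusp7 in both untreated pairs, with Dusp4 in WT alone. The shares of all genes under this minimum were not computed. Of 1312 recomputed single values 1261 stayed within the 95% counting interval, and 43 left it. Another 8 left an interval that had excluded 0 and turned sign. The longest-region, summed-region and 50-read settings gave 241, 241 and 160 of the 1261. The first 2 repeat the main value for genes with 1 region, and the read minimum changes no value, so these do not probe stability there. In all 45 turned sign, 25 of them on the library totals, 7 each by TMM and median-of-ratios, 5 with 0.1 reads added and 1 with regions summed. For 8 of the 45, all on the library totals, the interval had excluded 0. These were RIP over Input in KO with LPS for Dusp3 (-0.39), Dusp6 (-0.0811) and Dusp16 (-0.25), WT over KO in the RIP for Dusp3 (0.29 untreated, 0.26 LPS), and the Input-corrected ratio for Dusp3 (0.0691 untreated, 0.00434 LPS) and Dusp16 (0.80, LPS). Dusp1 kept its sign and an interval beyond 0 in all 8 settings for WT over KO in the RIP (2.40 to 3.24 untreated, 0.60 to 1.74 LPS), the Input-corrected ratio (3.17 to 4.0 and 1.01 to 2.21) and the RIP difference of the LPS change (-1.95 to -1.50). As Dusp1 had 1 region, the longest-region, summed-region and 50-read settings repeat its main value by construction. No paired analysis was possible because the replicate numbers are lanes, which share 1 column per library. Pairing LPS with untreated libraries by culture over both genotypes was not run. Depth limits the untreated KO RIP most, where 8 of the 10 members had under 20 reads.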
